A study of Mus musculus with 4 samples.

Results

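Pou2af1, Pou2f1 and Pou2f2 are 3 of the 31053 genes counted in 4 single-cell libraries of mouse leukocytes. They were picked by gene symbol, and their unique molecular identifiers (UMIs) were summed over barcodes gated by raw counts of marker genes. Each barcode stands for a droplet, usually with the RNA of 1 cell. A barcode was gated as B with at least 2 UMIs of Cd79a and Ms4a1 and as plasma with at least 20 of Jchain, Mzb1, Xbp1 and Derl3. It was gated as T with at least 1 UMI of Cd3e and Cd3d, as NK with at least 1 of Ncr1 and as myeloid with at least 5 of Lyz2. All 3 genes had UMIs in every library. Ocab, the gene the study removed, is another name of Pou2af1, and the question of the design is how its loss in T cells bears on leukocytes of prediabetic females.

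All mice of the study had floxed Ocab alleles (Ocabfl/fl). The controls had no further allele, and the other group carried CD4-Cre, a Cre recombinase driven by the promoter of Cd4 (Ocabfl/fl.CD4-Cre). A Cre of this kind is known to act in thymocytes, before CD4 and CD8 T cells part, and B cells are not its intended target. For the pancreas pair, CD45+ cells of 4 pooled mice aged 12 weeks were taken by flow cytometry for each library. For the pancreatic lymph node pair, CD3 cells of 5 pooled mice aged 8 weeks were taken with magnets for each library. With 1 library in each group there is no replicate check, so no genotype difference below has a p-value. Every interval is a 95% interval for counting error only, and it leaves out the spread between mice and preparations. Intervals of levels and ratios also leave out the spread between barcodes, so they can be too narrow. Counting error alone gives a variance equal to the mean. For Pou2f2 UMIs per barcode the variance was 5.64 times the mean in pancreas control myeloid barcodes and 1.98 times in T barcodes. The tissues differ in age and cell selection together and are not compared.

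Pou2af1 encodes OCA-B (also OBF-1 or Bob1), a transcriptional coactivator that does not bind DNA alone and joins Oct factors on the octamer element. Pou2f1 encodes Oct1, which is made in most cell types, and Pou2f2 encodes Oct2, which is best known from B cells. OCA-B and Oct2 are known for roles in germinal centre responses and immunoglobulin genes, and OCA-B with Oct1 for keeping cytokine genes of T cells ready for renewed expression.

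The promoters are shown because the octamer is the element through which these proteins act. The sequences are the 250 bases before the first base of the transcript in RefSeq (GRCm38.p6), 5′ to 3′ on the strand of the gene, with matches to the searched motifs in capitals. The motifs were the octamer ATGCAAAT, its shortened form TGCAAAT, which any octamer also contains, and TGACG, the core of the cyclic AMP response element. Both strands were searched, over 300 bases that run to 50 after the start.
Pou2af1, chr9:51213440-51213689, + strand: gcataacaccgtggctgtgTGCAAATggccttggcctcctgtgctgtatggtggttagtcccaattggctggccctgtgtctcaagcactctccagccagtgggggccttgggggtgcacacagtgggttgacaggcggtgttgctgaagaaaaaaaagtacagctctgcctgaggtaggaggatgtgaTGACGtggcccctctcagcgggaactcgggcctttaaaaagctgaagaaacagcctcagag
Pou2f1, chr1:166002635-166002884, - strand: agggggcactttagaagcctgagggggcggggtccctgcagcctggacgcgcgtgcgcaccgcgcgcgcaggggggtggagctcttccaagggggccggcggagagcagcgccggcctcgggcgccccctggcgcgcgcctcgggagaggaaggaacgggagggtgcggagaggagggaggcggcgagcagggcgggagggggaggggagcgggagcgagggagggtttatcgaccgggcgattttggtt
Pou2f2, chr7:25132461-25132710, - strand: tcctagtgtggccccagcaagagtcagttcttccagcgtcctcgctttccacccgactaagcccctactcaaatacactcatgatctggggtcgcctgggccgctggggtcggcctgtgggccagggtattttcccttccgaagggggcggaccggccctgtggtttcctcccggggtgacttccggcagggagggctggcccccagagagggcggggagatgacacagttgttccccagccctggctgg
The Pou2af1 stretch held TGCAAAT at -231 and TGACG at -61, counted from the start. The Pou2f1 stretch, the one at the start farthest upstream of 3 listed, and the Pou2f2 stretch held none of the motifs. No promoter of the 3 genes (5 in all) held the whole octamer, which was found in 570 of 32851 RefSeq mouse promoters of this length (1.735%). TGCAAAT was found in 4.021% and TGACG in 20.812%. The bases differed in make-up: GC was 56.0% with 5 CpG in Pou2af1, 74.4% with 29 CpG in Pou2f1 and 64.8% with 12 CpG in Pou2f2. The other 2 Pou2f1 promoters had 26.8% and 40% GC. A match describes letters, and no binding was measured.

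On GRCm38, Pou2af1 (ENSMUSG00000032053) spans chr9:51213708-51240080 on the + strand, 26373 bases with up to 5 exons. Pou2f1 (ENSMUSG00000026565) spans chr1:165865154-166002678 on the - strand, 137525 bases with up to 17 exons and 18 annotated transcripts. Its 3′ end overlaps Cd247 on the other strand, a T cell receptor subunit with 24243 UMIs in these libraries. Pou2f2 (ENSMUSG00000008496) spans chr7:25087344-25179726 on the - strand, 92383 bases with up to 15 exons, and overlaps D930028M14Rik on the + strand, with 1005 UMIs. Whether the counting used the strand is not given in the sources used here, so reads of these overlapping genes may not be told apart. Pou2af1 overlaps only Gm47828, which is not among the counted genes.

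The libraries listed between 3059 and 6963 barcodes with 14851217 to 32798133 UMIs. After filtering, 2918 to 6626 barcodes a library remained, with medians of 3655.5 to 4649.5 UMIs. In the pancreas 10.5% (control) and 11% (CD4-Cre) of kept barcodes passed gates of more than 1 class, against 0.377% and 0.0531% in the lymph node. Those barcodes were set aside, except that plasma barcodes could also pass the B gate. Barcode strings shared between libraries numbered 21 to 70 for each pair of libraries. Of the 6 check markers of each pancreas class other than B, which took no part in the gates, every one had UMIs in at least 10% of that class's barcodes. T markers were seen in at least 10% of NK barcodes in 5 of 6 cases. The magnetic selection left few other cells in the lymph node: 39 B barcodes in control and 0 in CD4-Cre, and 1 plasma barcode in each.

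Pou2af1 was a gene of B and plasma barcodes, with a small signal in control T barcodes and none or 1 UMI in myeloid and NK barcodes that passed no other gate. In pancreas B barcodes the level was 222 CPM (UMIs in 1000000 UMIs of the class; Poisson interval 207 to 238; 799 UMIs in 881 barcodes) in control and 229 CPM (216 to 243; 1133 UMIs in 1286 barcodes) in CD4-Cre. These intervals overlapped, and the log2 ratio (CD4-Cre/control) was 0.04 (-0.09 to 0.18). At least 1 Pou2af1 UMI was found in 51.2% of control B barcodes (Clopper-Pearson 47.8 to 54.5) and 50.7% of CD4-Cre ones. After each barcode was thinned to 1000 UMIs the shares were 18.3% and 20%. The highest count in 1 B barcode was 8 in control and 7 in CD4-Cre, and 48.8% and 49.3% of B barcodes had none. The 39 B barcodes of the lymph node control library held 27 UMIs, or 157 CPM (104 to 229).

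Pou2f2 was highest in B barcodes among the 5 pancreas classes. It was counted there at 434 CPM (413 to 456; 1559 UMIs) in control and 430 CPM (412 to 449; 2127 UMIs) in CD4-Cre, with a log2 ratio of -0.01 (-0.11 to 0.08). A UMI was seen in 72.2% and 71.5% of B barcodes. The lymph node control B barcodes held 320 CPM (241 to 417). Pou2f1 was found in every class at a low level, 36.5 CPM (30.5 to 43.3; 131 UMIs) in control B barcodes and 28.7 CPM (24.2 to 33.8; 142 UMIs) in CD4-Cre. Its log2 ratio in B barcodes was -0.34 (-0.70 to 0.01), an interval that included 0. Of 9832 genes with at least 20 UMIs over both B classes, 1.25% were lower and 1.32% higher in CD4-Cre by 2-fold or more, and none of the 3 genes was among them.

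**Figure D1:**
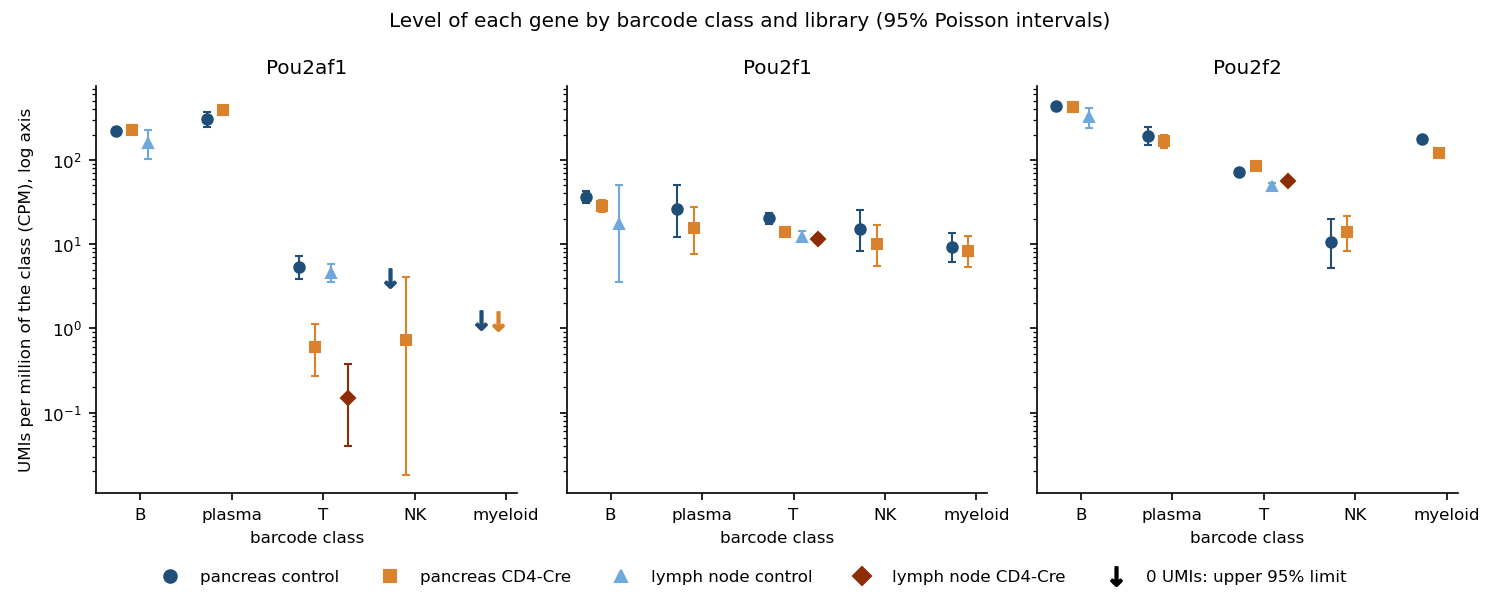
Level of Pou2af1, Pou2f1 and Pou2f2 (CPM, log axis) in 5 barcode classes, with 1 point for each library that had at least 15 barcodes in the class and 95% Poisson bars; arrows mark the upper limit where no UMI was counted. Pou2af1 stood at 222 and 229 CPM in pancreas B barcodes, at 5.35 and 0.601 in pancreas T barcodes and at 0 in myeloid barcodes, while Pou2f2 was found in all 5 classes.

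Within a library, B barcodes exceeded T barcodes for all 3 genes, by amounts that differed among them. For Pou2af1 the log2 ratio of B over T was 5.38 (4.94 to 5.85) in control and 8.57 (7.64 to 9.71) with CD4-Cre, from T levels of 5.35 and 0.601 CPM. For Pou2f2 it was 2.60 (2.46 to 2.74) and 2.34 (2.24 to 2.45). For Pou2f1 it was 0.84 (0.50 to 1.18) and 1.04 (0.72 to 1.35). The classes of a library share its mice and its free RNA.

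Pou2af1 was compared between 3 kinds of B barcode. Follicular-like barcodes, with at least 2 UMIs of Fcer2a and Ighd, had 215 CPM in control (629 barcodes) and 231 in CD4-Cre (911). Barcodes with neither of those genes had 235 and 202 CPM, log2 ratios over follicular-like ones of 0.13 (-0.15 to 0.40) and -0.19 (-0.42 to 0.04), both including 0. Cycling B barcodes held 28 and 5 UMIs, at 299 and 254 CPM, and their ratios, 0.47 (-0.13 to 1.02) and 0.14 (-1.49 to 1.37), also included 0. Pou2f2 was higher in the barcodes without Fcer2a and Ighd than in follicular-like ones, at 535 against 410 CPM in control (log2 ratio 0.38, 0.20 to 0.56). In CD4-Cre the values were 477 and 424 CPM (0.17, 0.02 to 0.32). Pou2f1 was lower there in control, at 19.6 against 39.4 CPM (-1.01, -2.01 to -0.14). In CD4-Cre it stood at 34.9 against 25.6 CPM (0.45, -0.17 to 1.04), an interval that included 0. Detection of the coactivator and of its partner in the same B barcode was compared after thinning. Pou2f2 was found in 28.1% (21.3 to 35.8) of 160 barcodes with a Pou2af1 UMI and 32.8% (29.4 to 36.4) of 716 without in control. With CD4-Cre the shares were 35.5% (29.7 to 41.7) of 256 and 34.7% (31.8 to 37.7) of 1025. The intervals overlapped in both libraries.

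The plasma gate held barcodes of more than 1 kind, and the levels of Pou2af1 and Pou2f2 differed between them. It took in 18 barcodes in pancreas control and 33 in CD4-Cre, all of which also passed the B gate. Just outside it, the B class reached 17 and 18 UMIs of the 4 plasma gate genes. Inside it, the control barcodes had 21 to 32 or 334 to 1879 such UMIs, and the CD4-Cre barcodes 20 to 210 or 383 to 2958. A line at 300 gate UMIs, drawn after these values were seen, put 10 control and 20 CD4-Cre barcodes below it and 8 and 13 above. Of the 6 plasma check markers, 4 were nearly absent below the line. Sdc1, the surface marker of plasma cells, had UMIs in 7 of 8 and 11 of 13 barcodes above it and in 0 of 10 and 1 of 20 below. Tnfrsf17, the receptor BCMA, was in 5 and 8 above and in none below, and Prdm1 and Fkbp11 were each in 0 of 10 and 1 of 20 below. The other two were present there: Txndc5 in 10 of 10 and 19 of 20 barcodes, and Eaf2 in 4 of 10 and 15 of 20, at 155 and 296 CPM against 9.46 and 5.26 CPM in the B class. Above the line Eaf2 stood at 313 and 209 CPM. Among B cell genes the picture was mixed too. The factor Pax5 was in 0 of 8 and 0 of 13 barcodes above the line and in 8 of 10 and 12 of 20 below, and Cd22 and Fcer2a were in none above. Cd79b was in every barcode above the line, and Ly6d in 5 of 8 and 6 of 13, against 4 of 10 and 7 of 20 below. The barcodes on either side are called by their gate count here.

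Pou2f2 was low in the barcodes above the line. It was counted at 47.0 CPM (21.5 to 89.2; 9 UMIs) in control and 35.8 CPM (17.9 to 64.1; 11 UMIs) in CD4-Cre, against 434 and 430 CPM in B barcodes. The log2 ratio over B was -3.21 (-4.34 to -2.28) in control and -3.58 (-4.59 to -2.74) with CD4-Cre. Pou2af1 was near the B level in the same barcodes, at 193 CPM (136 to 266; 37 UMIs) and 209 CPM (161 to 266; 64 UMIs). Its log2 ratio over B was -0.20 (-0.72 to 0.27) and -0.14 (-0.52 to 0.23), both intervals including 0. These signs depend on the total, since receptor, immunoglobulin, haemoglobin and mitochondrial genes made up 46.4% and 57.1% of the UMIs above the line. With those genes left out of the totals, Pou2af1 was higher than in B, at 0.63 (0.11 to 1.11) and 1.02 (0.63 to 1.38), and Pou2f2 remained lower, at -2.37 (-3.50 to -1.44) and -2.43 (-3.43 to -1.59). A Pou2af1 UMI was found in 8 of 8 and 12 of 13 of these barcodes, and a Pou2f2 UMI in 5 of 8 and 5 of 13. Pou2f1 had 6 and 3 UMIs there, too few to place.

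Below the line the pattern was different. Pou2af1 reached 450 CPM (349 to 572; 67 UMIs) in control and 522 CPM (454 to 597; 213 UMIs) in CD4-Cre, log2 ratios over B of 1.02 (0.64 to 1.38) and 1.19 (0.97 to 1.40). Pou2f2 stood at 383 CPM (290 to 497) in control, a log2 ratio over B of -0.18 (-0.59 to 0.20), and at 267 CPM (219 to 322) in CD4-Cre, -0.69 (-0.98 to -0.41). The median barcode below the line held 14952.5 UMIs in control and 19808.5 with CD4-Cre, against 3543 and 3380 in the B class. No doublet caller was run, and the part of doublets in these barcodes was not tested.

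Over the whole plasma gate, Pou2af1 had 306 CPM (250 to 370) in control and 387 CPM (343 to 436) in CD4-Cre. The log2 ratio of plasma over B was 0.46 (0.15 to 0.76) and 0.76 (0.56 to 0.95), and for Pou2f2 it was -1.16 (-1.54 to -0.81) and -1.36 (-1.64 to -1.09). These pooled values average both kinds of barcode, and the Pou2af1 sign depends on the line and the total. The receptor, immunoglobulin, haemoglobin and mitochondrial genes took 27.8% and 26.9% of plasma UMIs against 4.48% and 4.55% of B UMIs. Without them the Pou2af1 ratio was 0.86 and 1.14 and the Pou2f2 ratio -0.76 and -0.97.

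**Figure D2:**
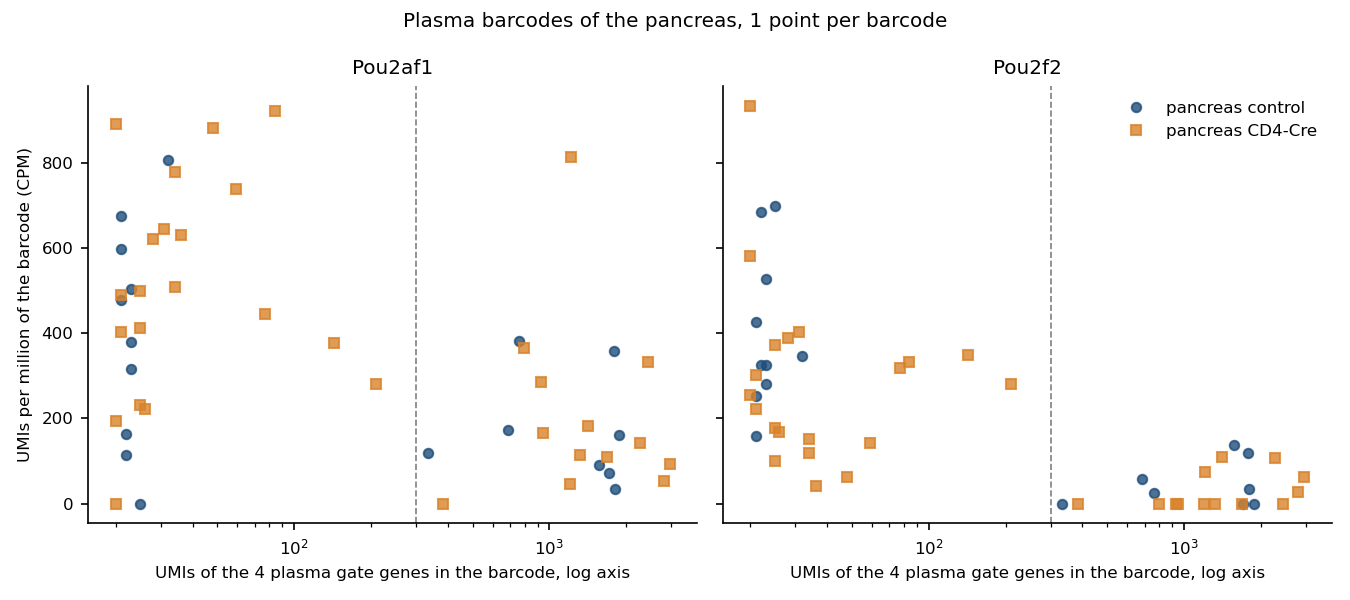
Pou2af1 and Pou2f2 (CPM of the barcode) against the summed UMIs of Jchain, Mzb1, Xbp1 and Derl3 (log axis) in each pancreas plasma barcode; the dashed line marks 300 gate UMIs. To the right of the line Pou2af1 was found in 8 of 8 control and 12 of 13 CD4-Cre barcodes, and Pou2f2 in 5 and 5.

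In T barcodes, Pou2af1 was low in the controls and lower still with CD4-Cre, in both tissues. The pancreas control library held 44 UMIs in 35 of 2102 T barcodes, or 5.35 CPM (3.89 to 7.18), with at most 4 in a barcode. The CD4-Cre library held 9 UMIs in 9 of 3795 barcodes, or 0.601 CPM (0.275 to 1.14). The log2 ratio was -3.15 (-4.37 to -2.10). In the lymph node, control had 65 UMIs in 60 of 2781 barcodes, 4.58 CPM (3.54 to 5.84), and CD4-Cre had 4 UMIs in 4 of 5558, 0.148 CPM (0.0405 to 0.380), with a log2 ratio of -4.95 (-6.87 to -3.52). The intervals of the paired libraries did not overlap in either tissue. Which exons the floxed alleles remove is not given in the sources used here, so UMIs from outside the deleted part could remain.

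These drops were among the largest of the genes counted. By 2-fold or more, 2.83% of 11314 genes were lower in CD4-Cre in pancreas T barcodes and 1.07% higher. In lymph node T barcodes 2.1% of 11161 genes were lower and 0.618% higher. Of the 3 genes, 1 was past this fold in each tissue, Pou2af1. Only 13 genes had a lower ratio than Pou2af1 in the pancreas and 7 in the lymph node. The medians of all genes were 0.00 and -0.09.

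**Figure D3:**
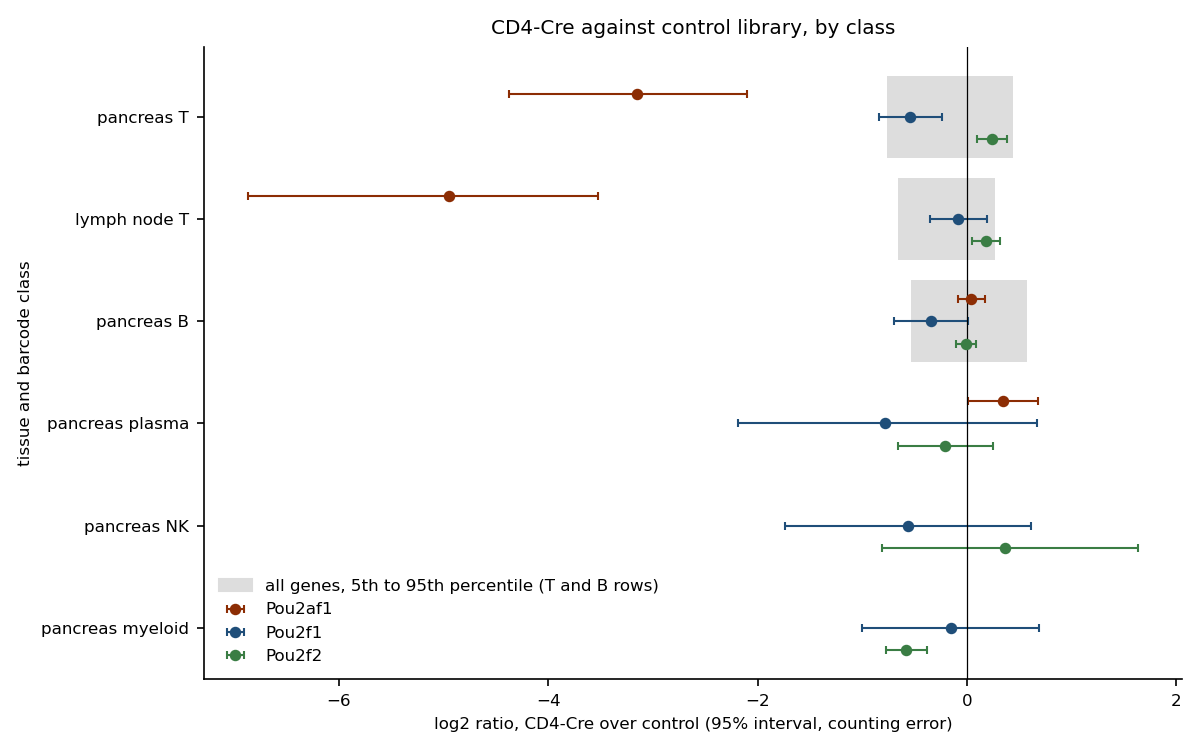
Log2 ratio of CD4-Cre over control for the 3 genes by tissue and barcode class, with 95% counting intervals; the grey band spans the 5th to 95th percentile of all genes with at least 20 UMIs in the T and B rows. Pou2af1 lay at -3.15 and -4.95 in T barcodes and at 0.04 in B barcodes, and in those rows no ratio of Pou2f1 or Pou2f2 left the band.

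The size of the pancreas ratio depended on setting aside barcodes with markers of more than 1 class. Under the T gate alone, the control library had 196 Pou2af1 UMIs, of which 146 (74.5%) lay in the 137 barcodes that also passed the B or plasma gate. In CD4-Cre it was 223 of 233 UMIs (95.7%), in 242 barcodes. Those barcodes were 5.43% and 5.39% of the T gate. With them included, the log2 ratio was -0.63 (-0.91 to -0.34). NK and myeloid barcodes depended on this step as well. Counted in every gate they pass, NK barcodes held 48 and 39 Pou2af1 UMIs (19.3 and 9.26 CPM) and myeloid barcodes 16 and 45 (4.05 and 8.35 CPM). The partners were less exposed, since 77.0% and 68.3% of the Pou2f1 UMIs and 57.2% and 60.4% of the Pou2f2 UMIs of the T gate lay in T barcodes with no other gate.

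RNA of other B cell genes was counted beside Pou2af1 in the T barcodes. Cd79b, a subunit of the B cell receptor, had 7422 UMIs in pancreas control B barcodes and 65 in T barcodes or 0.876% of the B count. Igkc and Ighd, immunoglobulin genes, stood at 1.74% and 0.591%. Pou2af1 had 799 and 44, or 5.51%. In CD4-Cre the order turned: Pou2af1 stood at 0.794% (1133 and 9), Cd79b at 1.33%, Igkc at 3.06% and Ighd at 1.02%. So in control T barcodes Pou2af1 was above the share of these 3 genes, and in CD4-Cre it was below each of them. The 35 Pou2af1-positive T barcodes of the pancreas control held 1 Cd79b UMI and no Igkc or Ighd UMI, with 38 UMIs of Ighm, 14 of Cd74 and 1 of Jchain. The 60 of the lymph node control, among 2781 T barcodes, held 12 of the class's 35 Igkc UMIs and 7 of 200 Cd79b UMIs. They also held 76 of 3814 Ighm and 8 of 569 Cd74 UMIs and none of Ighd or Jchain. In lymph node CD4-Cre the 4 positive of 5558 T barcodes held 74 of 370 Cd74 UMIs. They held 2 of 429 Cd79b and 11 of 6796 Ighm UMIs and none of Igkc. Ighm was itself frequent in T barcodes, with 1650 UMIs in pancreas control. Myeloid barcodes with no other gate had 0 Pou2af1 UMIs in 325 control and 294 CD4-Cre barcodes. A count of 0 allows up to 1.04 and 1.0 CPM there at 3 counts. Their median depth was 7508 and 9155.5 UMIs, against 3373.5 and 3467 in T barcodes. Counted in every gate they pass, myeloid barcodes held 16 and 45 Pou2af1 UMIs. NK barcodes with no other gate had 0 in 233 and 1 in 303. The part of free RNA in the Pou2af1 counts of T barcodes was not tested.

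Among the control T barcodes Pou2af1 was seen in CD4 and CD8 subsets alike, with the highest lymph node value in follicular helper-like barcodes. These were defined by a Cd4 UMI and at least 2 of Cxcr5, Pdcd1, Bcl6 and Il21. In the lymph node control they held 16 UMIs in 88 barcodes, 23.7 CPM (13.5 to 38.5), against 6.10 CPM (4.34 to 8.34; 39 UMIs) in all CD4 barcodes, of which they are mostly a part. The log2 ratio was 1.96 (1.02 to 2.83). In the pancreas control the values were 11.3 CPM (4.56 to 23.4; 7 UMIs in 82 barcodes) and 6.0 CPM (3.72 to 9.18; 21 UMIs), and that ratio, 0.92 (-0.56 to 2.20), included 0. Gamma-delta barcodes of that library, with a Trdc UMI, stood at a like level of 11.2 CPM (4 UMIs). With CD4-Cre, follicular helper-like barcodes held 1 UMI in each tissue, among 157 barcodes in the pancreas and 133 in the lymph node. The lymph node log2 ratio (CD4-Cre/control) in this subset was -4.26 (-9.65 to -1.57).

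CD4 barcodes fell from 6.0 to 0.510 CPM in the pancreas, with a log2 ratio of -3.56 (-5.56 to -1.99), and from 6.10 to 0.0786 CPM in the lymph node, -6.28 (-11.6 to -3.71). CD8 barcodes held 6 UMIs (2.99 CPM) and 0 of 652 barcodes in the pancreas, and 14 UMIs (3.29 CPM) and 0 of 1586 barcodes in the lymph node. CD4 and CD8 barcodes of the controls did not differ beyond their intervals, with log2 ratios of 1.0 (-0.35 to 2.60) and 0.89 (-0.02 to 1.89). Barcodes with a Trdc UMI, a gamma-delta receptor gene, held 4 UMIs among 92 in pancreas control and 2 among 115 in CD4-Cre. That ratio, -1.52 (-4.99 to 1.28), could not be placed against 0. Regulatory barcodes, with a Foxp3 UMI, had 2 and 1 UMIs in the pancreas and 1 and 0 in the lymph node.

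**Figure D4:**
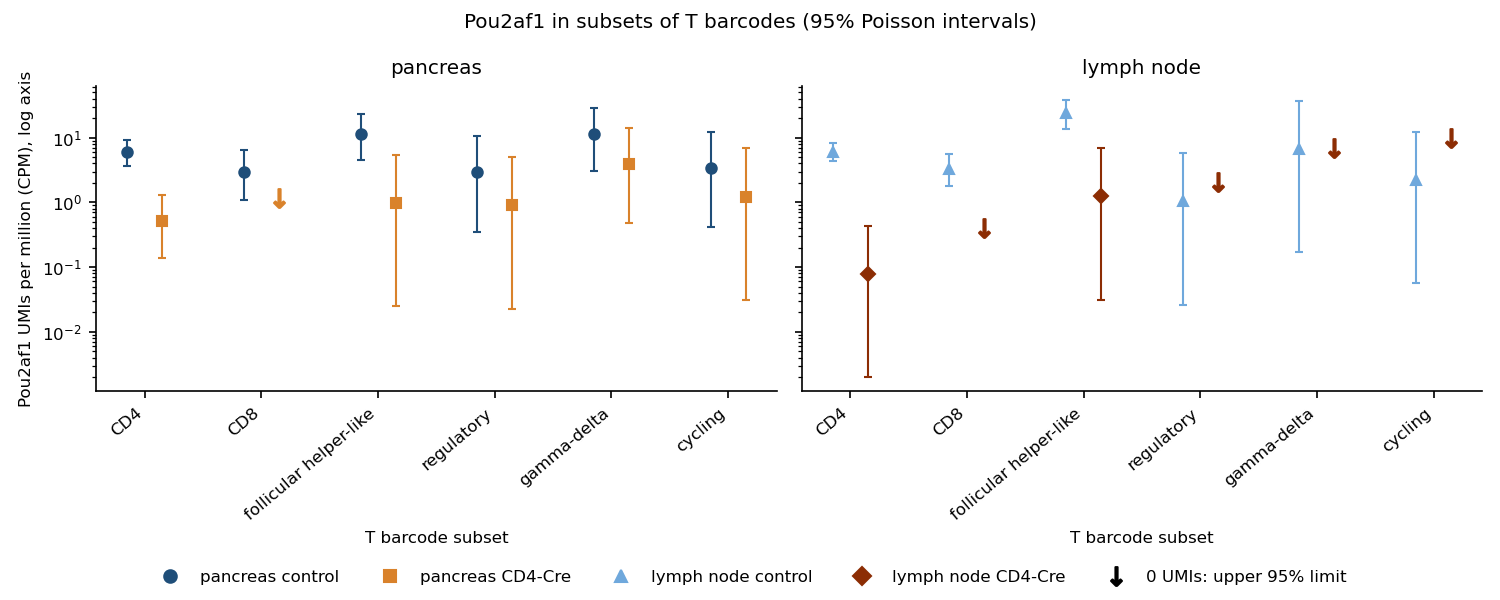
Pou2af1 level (CPM, log axis) in 6 subsets of T barcodes of the pancreas and the lymph node, control beside CD4-Cre, with 95% Poisson bars; arrows mark the upper limit where no UMI was counted. Follicular helper-like barcodes of the lymph node control stood at 23.7 CPM, and CD4-Cre lay below control in each subset drawn that had UMIs in both libraries.

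The same overlap can be counted from the positive barcodes, which adds no separate evidence. In the lymph node control, 11 of 60 T barcodes with a Pou2af1 UMI were follicular helper-like (18.3%), against 2.83% of the 2721 without. The chemokine receptor gene Cxcr5 was at 73.7 CPM in the positive barcodes and 8.04 in the others, and Pdcd1, which encodes PD-1, at 208 and 26.4. In the pancreas control 6 of 35 were follicular helper-like (17.1%), against 3.68% of 2067, with Cxcr5 at 36.3 and 7.22 CPM and Pdcd1 at 140 and 86.1. Both genes are among those that define the subset. Cxcr5 was also a gene of B barcodes, at 157 CPM in pancreas control B and 7.90 CPM in T barcodes. The part of B cell RNA in this subset was not tested. Positive barcodes were deeper, with medians of 4809 against 3366 UMIs in the pancreas and 5002.5 against 4679 in the lymph node, and the part of depth in these shares was not tested. The 4 positive barcodes of lymph node CD4-Cre had a median of 11240 UMIs, and 3 of them carried both Cd4 and Cd8 UMIs.

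Pou2f1, the broadly made partner, was lower in pancreas CD4-Cre T barcodes. It was counted at 20.3 CPM (17.3 to 23.6; 167 UMIs) in pancreas control and 14.0 CPM (12.1 to 16.0; 209 UMIs) in CD4-Cre, with a log2 ratio of -0.54 (-0.84 to -0.24). The ratio was -0.51 (-0.95 to -0.05) in CD4 and -0.78 (-1.49 to -0.07) in CD8 barcodes. It was below 0 in the other pancreas classes too: -0.34 in B, -0.78 (-2.19 to 0.67) in plasma, -0.56 (-1.74 to 0.61) in NK and -0.16 (-1.0 to 0.68) in myeloid barcodes, each with an interval that included 0. In follicular-like B barcodes, which are not the intended target of the Cre, it was -0.63 (-1.07 to -0.19). Some subsets went the other way, with intervals that included 0. The ratio was 0.83 (-0.15 to 1.92) in B barcodes without Fcer2a and Ighd, 1.86 (-0.31 to 5.06; 2 and 12 UMIs) in follicular helper-like T barcodes and 0.75 (-0.72 to 2.42; 6 and 14 UMIs) in cycling T barcodes. In the lymph node the T levels were 12.3 CPM (10.5 to 14.2; 174 UMIs) and 11.6 CPM (10.3 to 12.9; 312 UMIs), -0.08 (-0.36 to 0.19). Within pancreas control, T barcodes exceeded myeloid ones by a log2 ratio of 1.12 (0.53 to 1.77), and CD4-Cre gave 0.74 (0.14 to 1.40).

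Pou2f2 in T barcodes was somewhat higher in CD4-Cre than in control, and differed between subsets. Over all pancreas T barcodes it stood at 71.7 CPM (66.0 to 77.7; 590 UMIs) in control and 84.6 CPM (80.0 to 89.4; 1267 UMIs) in CD4-Cre, with a log2 ratio of 0.24 (0.10 to 0.38). In the lymph node it was 49.6 CPM (46.0 to 53.4; 703 UMIs) and 56.2 CPM (53.4 to 59.1; 1514 UMIs), 0.18 (0.05 to 0.31). Both intervals lay above 0 and both ratios lay inside the 5th to 95th percentile of all genes, -0.76 to 0.44 and -0.66 to 0.27.

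CD4 barcodes had 74.3 and 89.0 CPM of Pou2f2 (control, then CD4-Cre) in the pancreas and 54.6 and 57.6 CPM in the lymph node. CD8 barcodes had 73.4 and 89.6 CPM, and 42.6 and 50.7 CPM. Regulatory barcodes were high in every library, at 138 and 148 CPM in the pancreas and 168 and 178 CPM in the lymph node. Follicular helper-like barcodes had 152 and 219 CPM in the pancreas and 182 and 208 CPM in the lymph node. Over all CD4 barcodes, of which they are mostly a part, their log2 ratio was 1.03 (0.68 to 1.38) and 1.30 (1.08 to 1.52) in the pancreas, and 1.74 (1.43 to 2.04) and 1.86 (1.61 to 2.10) in the lymph node. The 4 intervals all lay above 0. Cxcr5, a gene of this gate, was also high in B barcodes, and the part of B cell RNA in this subset was not tested.

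Between genotypes, the Pou2f2 intervals lay above 0 in some T subsets and included 0 in others. In the pancreas the log2 ratio (CD4-Cre/control) was 0.26 (0.05 to 0.47) in CD4, 0.53 (0.17 to 0.89) in follicular helper-like and 0.97 (0.34 to 1.64) in cycling barcodes. In CD8 and regulatory barcodes the intervals included 0, at 0.29 (-0.0036 to 0.59) and 0.09 (-0.28 to 0.47). In the lymph node, CD8 barcodes gave 0.25 (0.0012 to 0.51), CD4 barcodes 0.08 (-0.11 to 0.26) and follicular helper-like ones 0.19 (-0.15 to 0.54). Whether these subsets differ from each other in their ratio was not tested.

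Pou2f2 was low in NK barcodes, at 10.7 CPM (5.15 to 19.7; 10 UMIs) in control and 13.8 CPM (8.30 to 21.5; 19 UMIs) in CD4-Cre. Pancreas T barcodes exceeded NK barcodes by a log2 ratio of 2.74 (1.85 to 3.81) and 2.62 (1.97 to 3.35). Both classes are lymphocytes of like depth, with median UMIs of 3373.5 and 3723 in control.

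Myeloid barcodes with no other gate had no Pou2af1 UMI and much Pou2f2, and its level differed between subsets. The class held 179 CPM (164 to 195; 518 UMIs) in control and 120 CPM (108 to 133; 358 UMIs) in CD4-Cre, with a log2 ratio of -0.58 (-0.78 to -0.38). Barcodes with Ace and Ear2, genes of non-classical monocytes, were highest, at 351 CPM (314 to 392; 113 barcodes) in control and 212 CPM (186 to 241; 117 barcodes) in CD4-Cre. Macrophage barcodes, with at least 5 UMIs of C1qa and C1qb, had 148 and 83.4 CPM. Barcodes of dendritic cells had less: 67.5 and 37.7 CPM in cDC2 (Cd209a and Clec10a) and 46.1 and 31.0 CPM in cDC1 (Xcr1 and Clec9a). The monocyte barcodes exceeded macrophage ones by a log2 ratio of 1.25 (0.98 to 1.53) in control and 1.35 (0.99 to 1.72) with CD4-Cre. In control a single monocyte barcode reached 23 Pou2f2 UMIs, and the highest B barcode had 15. These maxima are of unlike depth, with medians of 7508 UMIs in control myeloid and 3543 in control B barcodes. The control B level, 434 CPM, was above that of the monocyte barcodes. Of all control myeloid barcodes, 58.2% had no Pou2f2 UMI and 9.54% had more than 5.

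The difference between libraries ran through the myeloid subsets. The log2 ratio was -0.73 in monocytes, -0.82 (-1.21 to -0.44) in macrophages and -0.84 (-1.46 to -0.24) in cDC2, and -0.57, with an interval including 0, in cDC1. Barcodes in none of the subsets gave 0.17. Neutrophil barcodes, with at least 20 UMIs of S100a8 and S100a9, had 17 UMIs in 54 control barcodes, in 4 of them, and 0 in 22 CD4-Cre barcodes. The subsets were not exclusive: 29 control and 40 CD4-Cre barcodes passed both the macrophage and the monocyte rule. Library and genotype cannot be told apart here, with 1 library in each group.

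**Figure D5:**
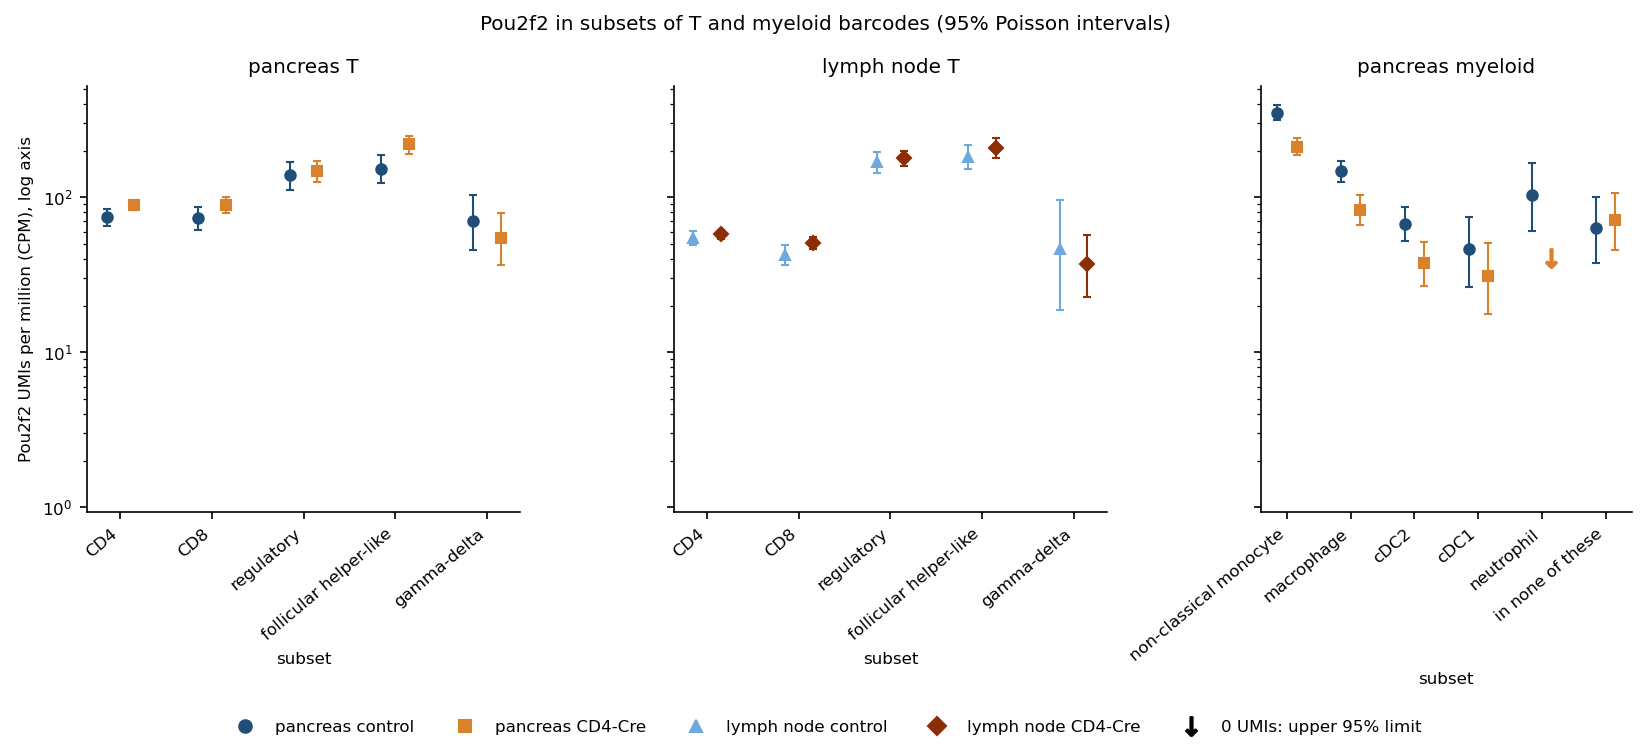
Pou2f2 level (CPM, log axis) in T subsets of each tissue and in myeloid subsets of the pancreas, control beside CD4-Cre, with 95% Poisson bars; the arrow marks the upper limit where no UMI was counted. Pancreas CD4 barcodes stood at 74.3 and 89.0 CPM and follicular helper-like ones at 152 and 219, and monocyte barcodes, the highest of the myeloid subsets, at 351 and 212.

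Of the POU family and Pou2af1 together, 16 genes were counted and 9 had any UMI in kept barcodes. The 3 genes led with 10527 (Pou2f2), 2926 (Pou2af1) and 1427 UMIs (Pou2f1), followed by Pou6f1 with 551 and Pou5f2 with 109. Of the 5 with at least 20 UMIs in pancreas T barcodes, 1 was higher in CD4-Cre (Pou2f2) and 4 lower, with a median of -0.54. Pou6f1, another POU factor, had a log2 ratio of -0.56 (-1.0 to -0.12) in pancreas T and -0.84 (-1.34 to -0.34) in lymph node T barcodes. Pou2f3, the remaining gene of the Oct1 and Oct2 subfamily, had no UMI.

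Genes of T cells that have been linked to Oct1 or OCA-B, 11 in the list used, went both ways in pancreas T barcodes. In lymph node T barcodes they were mostly lower, but so were most of all genes, whose upper quartile was 0.0156. In pancreas T barcodes 7 had at least 20 UMIs, 3 higher and 4 lower in CD4-Cre, none by 2-fold, with a median log2 ratio of -0.13. The ends were the cytokine genes Il2 (0.45) and Ifng (-0.63), with Icos, a costimulatory receptor, at 0.03 and Tbx21, which encodes T-bet, at -0.43. In lymph node T barcodes 8 had enough UMIs, 1 higher and 7 lower, 2 of them by 2-fold or more, with a median of -0.36 against -0.09 for all genes, of which 2.1% were lower by that fold. Those 2 were the cytokine genes Il21 at -1.48 (44 UMIs in control and 30 in CD4-Cre) and Il2 at -1.36 (42 and 31). Ifng, at 0.47, was the one higher gene, and Icos stood at -0.26. The list's promoters, 12 from the 10 genes in RefSeq, held no octamer.

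In pancreas B barcodes, 7 octamer-linked genes gave 4 higher and 3 lower, none by 2-fold, with a median of 0.09 beside 0.06 for all genes. The ends were the chemokine receptor Cxcr5 (0.14) and the kinase Btk (0.11) on the higher side and Ighm (-0.40) and the repressor Bcl6 (-0.26) on the lower. Of 12 transcription factors of the B lineage, 11 had enough UMIs there, 6 higher and 5 lower, none by 2-fold, from Foxo1 at 0.39 and Irf8 at 0.14 to Pax5 at -0.32 and Bcl6 at -0.26. In pancreas T barcodes 9 of them had enough UMIs, 4 higher and 5 lower, none by 2-fold, with a median of -0.14 beside 0.00 for all genes. In lymph node T barcodes 8 had enough UMIs and all 8 were lower, with a median of -0.43. All genes there had a median of -0.09 and an upper quartile of 0.0156, so most of them were lower too. By 2-fold or more, 2.1% of all genes were lower. The 2 list members past that fold were Spi1 (-2.34, 16 and 6 UMIs) and Irf4 (-1.13, 145 and 126 UMIs). The SIAH ubiquitin ligases, which are known to target OCA-B protein, were at 0.09 (Siah1b), 0.01 (Siah1a) and -0.05 (Siah2) in pancreas T barcodes. In lymph node T barcodes Siah2 was at -1.09 (282 and 252 UMIs), Siah1a at -0.35 and Siah1b at 0.36.

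The pattern of each gene over the 10 sums of 5 classes in both pancreas libraries was set beside that of 11625 other genes, as Pearson's r of log2(CPM + 1). The values describe 10 points that share libraries and classes. The genes most like Pou2af1 were Srms (0.992), Dmwd (0.986), Gm30211 (0.985), Iglc2 (0.984), Ighv1-64 (0.983), Cecr2 (0.982), Iglc1 (0.980) and Vpreb3 (0.979). Srms and Dmwd rest on few UMIs. Each stood at 8.82 CPM in control plasma barcodes, the floor of 3 counts there, and at 0 in NK and myeloid barcodes of both libraries. Among B lineage factors Pax5 gave 0.963, Spib 0.941 and Ebf1 0.898. For Pou2f2 the most like were Ift74 (0.982), Tnfrsf13b (0.979), which encodes the receptor TACI, Chst15 (0.978), Mtss1 (0.973) and Cd2ap (0.972). For Pou2f1 they were Brd8 (0.953), Hes5 (0.935), Dhx57 (0.932), Etnk1 (0.931) and Nmrk1 (0.927). The 3 genes were less like each other: r was 0.792 for Pou2af1 with Pou2f1, 0.667 for Pou2af1 with Pou2f2 and 0.521 for Pou2f1 with Pou2f2.

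Of the 8 genes most like Pou2af1, 4 had a RefSeq promoter, and 1 of these, Vpreb3, a protein that associates with immunoglobulin chains in B cells, held the whole octamer, on the other strand at -45. Its window is shown beside that of the shortened form in Pou2af1, in the B lineage factor Spib, and in Prdm1, which encodes the plasma cell factor Blimp1, with the match in capitals.
Vpreb3, chr10, -45: tcagtgggctgATTTGCATgctctattgtg
Pou2af1, chr9, -231: ccgtggctgtgTGCAAATggccttggcct
Spib, chr7, -248: ccTGCAAATcttttgtctca
Prdm1, chr10, -167: tgttgaaatccATTTGCAaacagaggaag
The whole octamer was thus in 1 of 4 promoters here and in 1.735% of all, a description of few genes.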

How the data were processed

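Single-cell 5′ gene expression was measured in 4 mouse libraries, 1 for each genotype and tissue. The authors deposited counts of UMIs per gene and barcode, whole numbers without normalization, written by software version 3.0.0 per the file headers. Cell Ranger and mm10 are named in the submitters' processing notes. Barcodes with at least 500 genes and at most 10% mitochondrial UMIs were kept, gated, and used where they fell in 1 class. No doublet caller was run. Summed UMIs were divided by the class total (CPM), with exact Poisson, Clopper-Pearson and conditional binomial 95% intervals. Only the conditional binomial intervals were run on simulated data. Those were Poisson counts without spread between barcodes, so the run cannot show how the intervals fare with such spread. A count of 0 has a floor of 3 counts. Shares were thinned to 1000 UMIs.

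The members and lists were chosen with earlier results of these data known. Some genes, and the subsets defined with them, are not reported here. From each list the highest and lowest 2 ratios among genes with at least 20 UMIs were named, and by likeness the 8 or 5 highest r among genes with at least 50 UMIs (pseudocount 1). Gene positions are from GENCODE M21, which held 30934 of 31053 identifiers, and promoters from RefSeq. Alternatives were 8 settings for gates, filters, totals and weights, with edgeR 4.0.16 and DESeq2 1.42.0 (R 4.3.3) used only for scaling, and 1 added after seeing the data. Python 3.11.15, numpy 2.4.6, scipy 1.17.1, pandas 2.3.3 and matplotlib 3.10.9 were used.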

Additional observations from a re-analysis of the deposited data

Results flagged for a closer look

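The log2 ratio (CD4-Cre/control) went in opposite directions between classes for Pou2af1. It was -3.15 in pancreas T and -4.95 in lymph node T barcodes and 0.34 (0.01 to 0.68) in pancreas plasma barcodes. Above and below 300 gate UMIs the plasma ratio was 0.11 (-0.50 to 0.74) and 0.21 (-0.19 to 0.63), both intervals including 0. For Pou2f2 the ratio was 0.24 in pancreas T and 0.18 in lymph node T barcodes and -0.58 in pancreas myeloid barcodes. The differences between classes were not tested.

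Barcodes that passed gates of several classes were left out of the comparisons and held Pou2af1, at 48.3 CPM (41.1 to 56.3; 163 UMIs) in pancreas control, 40.5 CPM (35.7 to 45.7; 260 UMIs) in pancreas CD4-Cre and 192 CPM (116 to 301; 19 UMIs) in lymph node control.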

How the results depend on the processing

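No paired analysis was possible because each group has 1 library. Of 152 values of 19 log2 ratios under 8 settings, 130 stayed within the counting interval, 21 moved beyond it and 1 whose interval had left out 0 changed sign. Of the 130, 6 crossed 0, all from intervals that included it: Pou2f1 in lymph node T barcodes (to 0.0147, 0.0070 and 0.0096), Pou2af1 in pancreas B barcodes (to -0.0150 and -0.0153) and Pou2f2 there (to 0.0009). With barcodes counted in every gate they pass, Pou2af1 in pancreas T barcodes had a genotype ratio of -0.63. The ratio of B over T was then 3.55 (control) and 4.20 (CD4-Cre) for Pou2af1 and 2.08 and 1.86 for Pou2f2, and Pou2f2 plasma over B in CD4-Cre was -1.04. With raised gates, Pou2af1 plasma over B was -0.26 in control, of opposite sign, and 0.52 in CD4-Cre, and Pou2f2 -3.20 and -1.92. With the plasma gate at 300 UMIs, a setting chosen after seeing the data, Pou2af1 turned to -0.20 and -0.14 and Pou2f2 gave -3.21 and -3.58. Plasma over B also moved with the scaling. Without receptor, haemoglobin and mitochondrial genes, with TMM and with DESeq2 size factors, Pou2af1 gave 0.86, 0.92 and 0.97 in control and 1.14, 1.19 and 1.23 in CD4-Cre, and Pou2f2 -0.76, -0.70 and -0.65, and -0.97, -0.93 and -0.88. Of 44 other values, 37 moved, most of them shares of positive barcodes at another thinning depth. Counting depth limits Pou2af1 in T subsets, where CD4-Cre held 0 to 5 UMIs each.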
